A study of Rattus norvegicus with 9 samples.

Results

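The expression of 10 members of the BCL2 family was followed through ischemia of an artery: 3 pro-survival genes (Bcl2, Bcl2l1, Mcl1), 2 effector genes (Bax, Bak1) and 5 BH3-only genes (Bid, Bik, Bcl2l11, Bbc3, Pmaip1). These 10 symbols were chosen by name, as the best known members that hold or release the brake on mitochondrial cell death, out of 37203 gene symbols in the table. All 10 were among the 15482 symbols that passed the filter on low counts. The libraries came from superior mesenteric arteries, which supply most of the small intestine, of Sprague-Dawley rats that were 8 weeks old and weighed 220 to 240 g. There were 9 RNA libraries in 3 groups of 3, named normal, ischemia 1 h (the early stage) and ischemia 4 h (the late stage). The labels name no transgene or deleted gene in any group. Ischemia was produced by bleeding the anaesthetized animal (sodium pentobarbital) through a catheter in the right femoral artery, and no tying off of the mesenteric artery itself is described. The sources used here do not state whether normal rats were anaesthetized or operated on. The study lists its 9 rat samples as coming from 3 individuals. It also describes killing the rats at the end of ischemia, before the artery was taken. Whether each library came from a separate rat is not clear from this, so the p-values measure only the spread between these libraries.

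BCL2 family proteins decide whether the outer mitochondrial membrane stays closed. The pro-survival proteins BCL2, BCL-XL (encoded by Bcl2l1) and MCL1 bind the effectors BAX and BAK, which otherwise form pores that release cytochrome c and so activate caspases. BH3-only proteins sense damage or lost growth signals and either block the pro-survival proteins or activate the effectors directly. Much of the control lies in the proteins, through cleavage, phosphorylation, movement to mitochondria and rapid turnover, which a count of transcripts does not measure.

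The start regions of the members were read from the RefSeq table of assembly GRCr8, which held 7 of the 10 (Bax, Bik and Bbc3 had no entry). Windows from 250 bases before to 50 bases after each start were searched on both strands. The hypoxia element core was searched as ACGTG and lies within the E-box CACGTG, the core of the cAMP response element was searched as TGACG, and the AP-1 site as TGANTCA. The CArG box of serum response factor was searched as well. ACGTG was found in 2 of 7 members (Bcl2 and Bcl2l1) and in 19.7% of 27457 promoters. TGACG was found in 2 of 7 (Mcl1 and Pmaip1) and in 22% of promoters. No window of a member held the E-box, the AP-1 site or the CArG box, beside 6.65%, 7.33% and 1.64% of promoters. The 250 bases before the start are shown for the 4 members with a match, because these include both members whose 95% intervals lay above 0 at both times, Bcl2l1 and Pmaip1. They are written 5′ to 3′ on the strand of the gene, with the match in capitals (CACGT and CGTCA are ACGTG and TGACG read on the other strand). Bcl2l1 has 4 start regions in the table, and the one farthest upstream is given. The other start regions of Bcl2l1 held no match to any of the motifs searched.
Bcl2l1, chr3:161764776-161765025, minus strand: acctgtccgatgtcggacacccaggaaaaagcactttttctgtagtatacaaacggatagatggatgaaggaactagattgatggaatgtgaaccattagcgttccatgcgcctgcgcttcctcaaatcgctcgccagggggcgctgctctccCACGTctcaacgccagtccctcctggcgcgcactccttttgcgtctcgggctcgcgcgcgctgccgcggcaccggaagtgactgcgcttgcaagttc
Pmaip1, chr18:62255720-62255969, plus strand: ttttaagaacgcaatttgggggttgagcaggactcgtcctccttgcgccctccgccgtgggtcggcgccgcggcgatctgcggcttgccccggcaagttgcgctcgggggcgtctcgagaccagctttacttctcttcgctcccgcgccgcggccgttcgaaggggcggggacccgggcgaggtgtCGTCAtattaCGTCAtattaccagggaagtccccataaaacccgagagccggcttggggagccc
Mcl1, chr2:185907918-185908167, plus strand: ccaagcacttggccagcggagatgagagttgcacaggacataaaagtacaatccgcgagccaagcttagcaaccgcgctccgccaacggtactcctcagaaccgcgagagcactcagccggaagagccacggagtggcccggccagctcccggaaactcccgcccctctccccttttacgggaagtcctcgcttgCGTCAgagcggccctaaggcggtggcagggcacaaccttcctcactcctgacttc
Bcl2, chr13:23366901-23367150, minus strand: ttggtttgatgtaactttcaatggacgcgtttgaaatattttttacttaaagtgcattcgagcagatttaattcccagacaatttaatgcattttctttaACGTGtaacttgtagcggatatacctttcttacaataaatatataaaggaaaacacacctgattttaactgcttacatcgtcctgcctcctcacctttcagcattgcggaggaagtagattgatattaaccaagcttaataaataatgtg
The match in Bcl2l1 began at -97 from the start, the one in Mcl1 at -55 and the one in Bcl2 at -150. Pmaip1 held TGACG at -64 and again at -54. A match of this kind is a stretch of letters and not a measured binding site.

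Total counts ran from 13114273 to 15504240 per library, so a value of 1 CPM (counts scaled to a common library size, with totals adjusted by the TMM method) stood for 12.1 to 17.9 counts. All 8 smooth muscle markers and all 8 endothelial markers were high enough to test, and so were all 8 adipocyte and all 8 exocrine pancreas markers. Summed smooth muscle markers ranged from 10788 to 68828 CPM, summed endothelial markers from 452 to 1488 CPM, summed adipocyte markers from 394 to 2366 CPM and summed exocrine pancreas markers from 4.48 to 167 CPM. Nerve markers (20 genes of sympathetic neurons and Schwann cells) varied the most of these, from 87.7 to 2788 CPM in normal, 2003 to 10424 CPM in ischemia 1 h and 237 to 10164 CPM in ischemia 4 h. Of 8 lymphocyte markers, 0 were high enough to test. These are whole-vessel libraries, in which fewer cells of a type and less RNA per cell cannot be told apart.

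In order to compare the members with all other genes, every contrast was fitted across the whole table with edgeR's quasi-likelihood test, and a gene was called where its Benjamini-Hochberg adjusted p was under 0.05 and it differed by over 1.5 times. No member was called in any contrast. At 1 h against normal, 0 of 10 members were called, where 0.0581% of all tested genes were. At 4 h against normal the count was 0 of 10 against 0.0904% of all genes. With so few calls in the whole table, the members were also read at an unadjusted p under 0.05. At 1 h this held for 2 members (Bcl2l1 and Pmaip1, both higher) and for 16.7% of all genes. At 4 h it held for 3 members (Bcl2l1 and Pmaip1 higher, Bik lower) and for 12.4% of all genes. DESeq2, a second count test, called 0 members at 1 h (4.8% of all genes) and 2 members at 4 h, Bcl2l1 and Bik (3.98% of all genes). For DESeq2, all genes here and below means those to which it gave an adjusted p. These were 14639 at 1 h and 15240 in the other contrasts. The median log2 fold change of the 10 members was 0.16 at 1 h and 0.04 at 4 h, beside medians of -0.0076 and 0.03 over all tested genes. Both contrasts used the same 3 normal libraries, so a high or low normal library enters both.

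**Figure D1:**
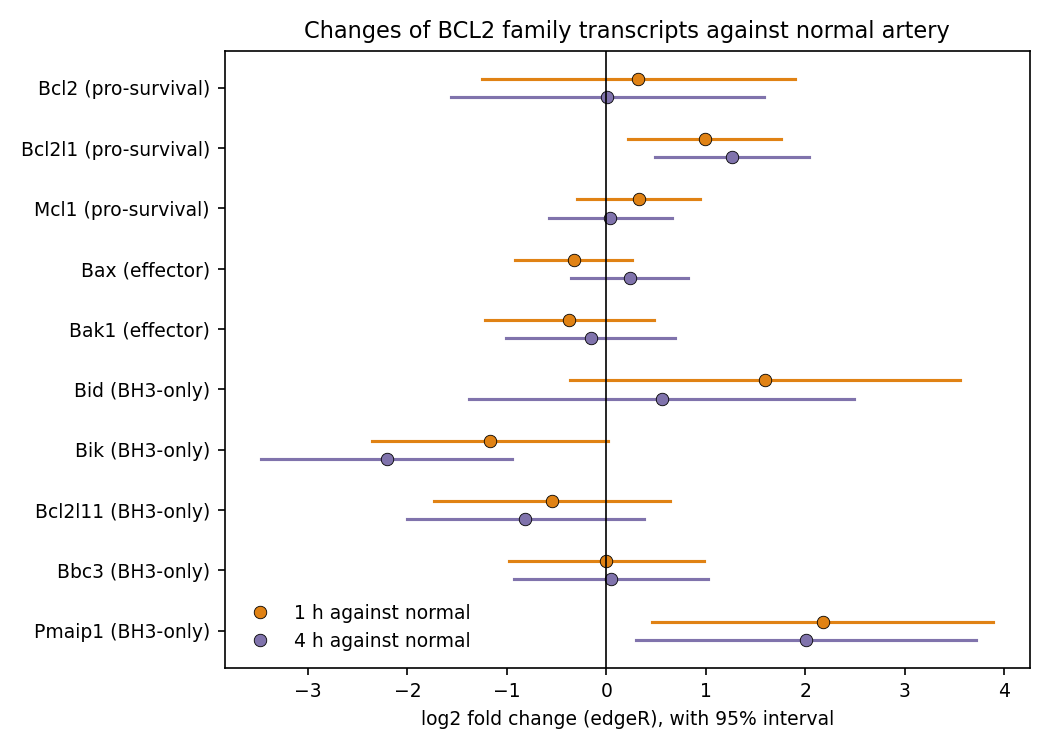
Fitted log2 fold changes of the 10 members against normal, at 1 h and at 4 h of ischemia, with 95% intervals from edgeR (3 libraries per group). The intervals of Bcl2l1 and Pmaip1 lie above 0 at both times and that of Bik lies below 0 at 4 h, while the intervals of the other members span 0.

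Bcl2l1 encodes BCL-XL, which holds BAX and BAK in check at the mitochondrial membrane. Its level was 114, 105 and 54.0 CPM in the normal libraries, 128, 245 and 168 CPM after 1 h, and 204, 249 and 203 CPM after 4 h. Every ischemic library was above every normal one, and the lowest value of all was normal replicate 3. In that library 29.3% of counts came from mitochondrial genome genes, against 9.10 to 24.8% in the others. What this share meant for the Bcl2l1 level was not tested. The group means were 90.8 ± 32.2 CPM in normal, 180 ± 59.7 CPM at 1 h and 219 ± 25.9 CPM at 4 h (SD, n = 3 each). The log2 fold change was 0.99 (SE 0.34, edgeR adjusted p = 0.258) at 1 h and 1.27 (SE 0.34, adjusted p = 0.188) at 4 h, neither of which passed the test. DESeq2 gave an adjusted p of 0.0653 at 1 h and 0.0121 at 4 h. Of all tested genes, 12.8% at 1 h and 7.93% at 4 h also had all ischemic libraries above all normal ones. Taking the 6 ischemic libraries together, the log2 fold change was 1.13 (SE 0.30, edgeR adjusted p = 0.131, DESeq2 adjusted p = 0.00603), and 3.99% of all genes likewise had all 6 above all 3 normal libraries. The nerve score (the mean log2 CPM of the nerve markers) was also included in a fit. The changes were then 1.15 at 1 h and 1.28 at 4 h (edgeR adjusted p = 0.405 and 0.126). With the endothelial score they were 1.22 and 1.68 (edgeR adjusted p = 0.130 and 0.132). The fit with the endothelial score, here and below, was chosen after seeing the data. A processed copy, Bcl2l1-ps1, has its own row with 1 to 9 counts per library, and reads that fit both genes could have been split between them, so the level of Bcl2l1 is uncertain to that extent.

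Mcl1 encodes a pro-survival protein with a very short life, which makes its transcript level matter for its supply. It stood at 90.5, 98.0 and 105 CPM in normal, 78.7, 176 and 114 CPM at 1 h, and 101, 105 and 96.1 CPM at 4 h. The groups overlapped, and ischemia 1 h replicate 2 was the single high library. Fitted log2 fold changes were 0.33 (SE 0.27, adjusted p = 0.516) at 1 h and 0.04 (SE 0.27, adjusted p = 0.966) at 4 h, and without ischemia 1 h replicate 2 the early value was -0.02. Its 95% interval at 4 h ran from -0.57 to 0.66 on the log2 scale, so a change of that size could be missed. RefSeq lists processed copies of Mcl1 and of Bax. The symbols Mcl1-ps1 and Bax-ps1 had no row among the counts, and reads shared with such copies could not be told apart.

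Bcl2, the founding member of the family, was low in this tissue. It measured 6.49, 2.12 and 3.40 CPM in normal, 5.62, 4.21 and 5.22 CPM at 1 h, and 0.827, 4.39 and 6.87 CPM at 4 h. The 4 h libraries held both the highest and the lowest value of all 9. The log2 fold change was 0.32 (SE 0.69, adjusted p = 0.818) at 1 h and 0.01 (SE 0.69, adjusted p = 0.998) at 4 h. The spread within the 4 h group was wider than any difference between group means. The nerve score of the same 4 h libraries was 1.36, 1.93 and 8.36. The library with most Bcl2 thus had the highest nerve score of its group. Over the 9 libraries, log2 CPM of Bcl2 correlated most with the macrophage score (r = 0.803, 7 markers tested). The next were the nerve score (0.758), the smooth muscle score (-0.713) and the adipocyte score (0.679). The part of macrophages, muscle and fat in the Bcl2 level was not tested. The part of nerve was not tested beyond the covariate fit, in which the changes were -0.49 at 1 h and -0.13 at 4 h.

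**Figure D2:**
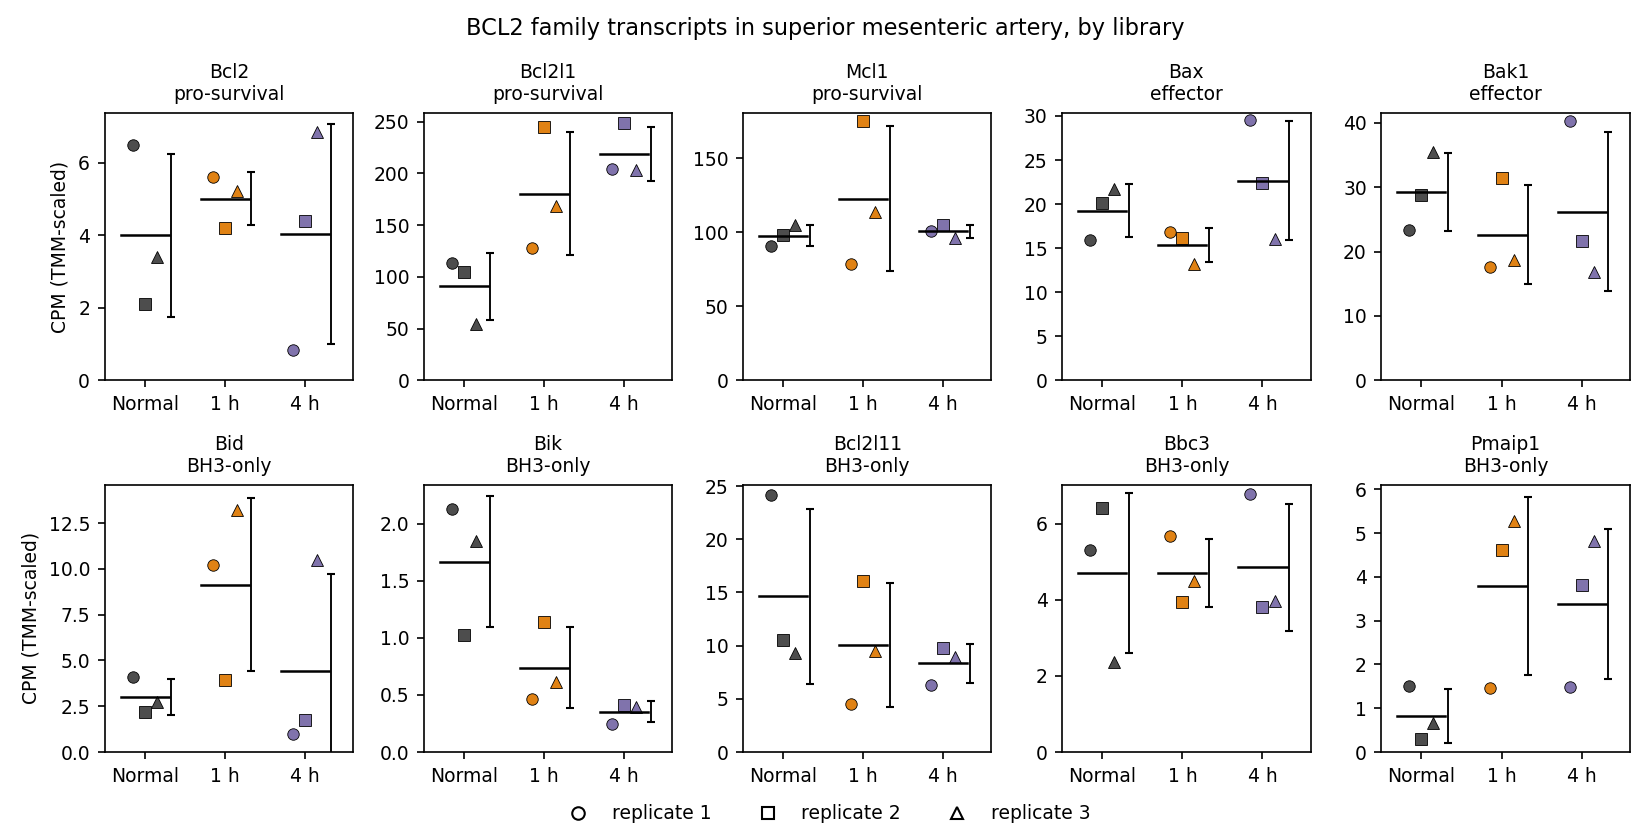
Level of each member in each library in CPM, with 3 libraries per group as points the group mean as a line and the SD as a bar. The bar of Bid at 4 h is clipped at 0 because its SD exceeds its mean. Bcl2l1 is the panel in which the 6 ischemic points all lie above the 3 normal ones.

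The effectors BAX and BAK form the pore itself. Bax stood at 15.9, 20.1 and 21.7 CPM in normal, 16.8, 16.1 and 13.1 CPM at 1 h, and 29.5, 22.4 and 16.0 CPM at 4 h. The groups overlapped at both times, and the highest library was ischemia 4 h replicate 1. Against normal, the fitted log2 value of Bax was -0.33 (SE 0.26, adjusted p = 0.494) at 1 h and 0.23 (SE 0.26, adjusted p = 0.727) at 4 h, and without that library the late value was -0.03. Between the stages, Bax had the largest positive value of the members, 0.56 (SE 0.26, 95% interval -0.03 to 1.15, adjusted p = 0.856), which did not pass the test. With the nerve score as a covariate this value was 0.24, and its dependence on the nerve content was not tested further.

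Bak1 measured 23.4, 28.8 and 35.5 CPM in normal, 17.7, 31.4 and 18.7 CPM at 1 h, and 40.2, 21.6 and 16.8 CPM at 4 h. The widest spread was again among the 4 h libraries, where replicate 1 was highest and replicate 3 lowest of all 9. Against normal the log2 fold change was -0.37 (SE 0.37, adjusted p = 0.597) at 1 h and -0.16 (SE 0.37, adjusted p = 0.888) at 4 h. Neither effector passed the test at either time. Ischemia 4 h replicate 1, the highest library for both effectors, also had the largest summed smooth muscle level (68828 CPM), whose part in these values was not tested.

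Bid encodes a BH3-only protein that caspase 8 cuts into its active form, which links death receptors to mitochondria. Its level was 4.09, 2.19 and 2.73 CPM in normal, 10.2, 3.94 and 13.2 CPM at 1 h, and 0.992, 1.74 and 10.5 CPM at 4 h. Only 3 libraries were above 10 CPM, namely ischemia 1 h replicates 1 and 3 and ischemia 4 h replicate 3. Its log2 fold change was 1.60 (SE 0.86, adjusted p = 0.341) at 1 h and 0.56 (SE 0.84, adjusted p = 0.812) at 4 h. The same 3 libraries had the highest nerve scores (8.31, 8.46 and 8.36, against 0.262 to 5.90 in the other libraries). They also had the highest adipocyte scores (6.83, 6.46 and 6.04, against 3.71 to 5.38). Once the nerve score entered the fit as a covariate, Bid was at 0.05 on that scale at 1 h and -0.23 at 4 h, and without ischemia 4 h replicate 3 the late value was -1.13. Summed adipocyte markers were 394 to 2366 CPM in normal, 991 to 2157 CPM at 1 h and 446 to 1155 CPM at 4 h. The part of fat in the Bid level was not tested, and that of nerve was not tested beyond the covariate fit.

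**Figure D3:**
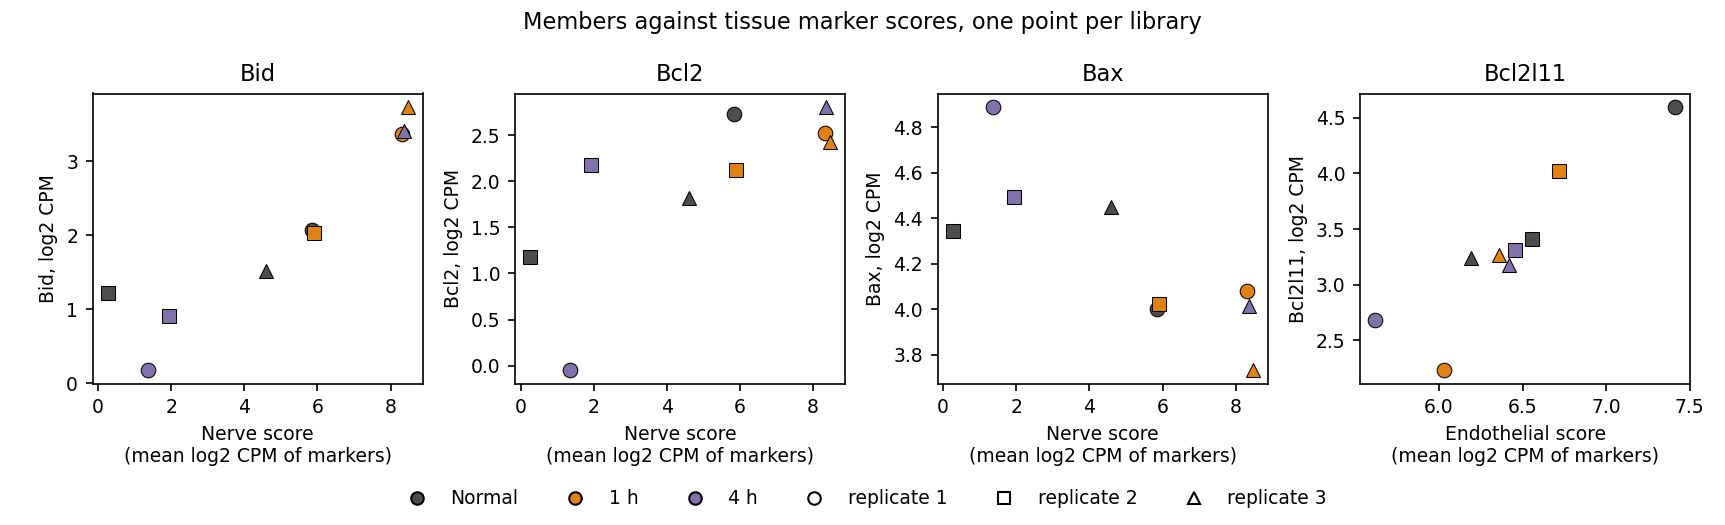
Level of members against tissue marker scores (mean log2 CPM of the marker list) in the 9 libraries, with points coloured by group. The 3 libraries with a nerve score above 8 are the 3 with the most Bid, and the normal library with the highest endothelial score is the one with the most Bcl2l11.

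Bik encodes a BH3-only protein of the endoplasmic reticulum membrane. It was counted 38, 14 and 25 times in the normal libraries, 7, 17 and 10 times at 1 h, and 3, 5 and 6 times at 4 h. In CPM these were 2.13, 1.02 and 1.85, then 0.468, 1.14 and 0.614, then 0.248, 0.415 and 0.396. All 4 h libraries were below all others, while 1 library at 1 h lay above the lowest normal library. Its log2 fold change was -2.21 (SE 0.55, 95% interval -3.47 to -0.95, adjusted p = 0.169) at 4 h and -1.16 (SE 0.52, adjusted p = 0.303) at 1 h. DESeq2 gave -2.22 at 4 h with an adjusted p of 0.0421. All 4 h libraries below all normal ones was the case for 10.8% of all tested genes. From 1 h to 4 h the value was -1.04 (SE 0.55, adjusted p = 0.856), and 3.04% of all genes had all 4 h libraries below all 1 h ones. The counts are small: a count of 3 has an exact Poisson 95% interval of 0.619 to 8.77, and 38 has one of 26.9 to 52.2, both covering counting error only. With the endothelial score as a covariate the late value was -1.86, and with the nerve score it was -2.21.

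Pmaip1 encodes NOXA, which binds MCL1 and is a target of the tumour suppressor p53. Its counts were 27, 4 and 9 in normal, 22, 69 and 86 at 1 h, and 18, 46 and 73 at 4 h. In CPM these were 1.51, 0.292 and 0.665, then 1.47, 4.61 and 5.28, then 1.49, 3.81 and 4.82. Replicates 2 and 3 of both ischemic groups were above every normal library, and replicate 1 of both lay just below normal replicate 1, so the groups overlapped. The log2 fold change was 2.18 (SE 0.75, 95% interval 0.46 to 3.89, adjusted p = 0.26) at 1 h and 2.01 (SE 0.75, adjusted p = 0.327) at 4 h. For the 6 ischemic libraries together it was 2.09 (SE 0.69, edgeR adjusted p = 0.194, DESeq2 adjusted p = 0.0310). Fitted with the nerve score, the changes were 1.65 and 2.02 (edgeR adjusted p = 0.504 and 0.196). With the endothelial score they were 2.81 and 2.91 (edgeR adjusted p = 0.118 and 0.167). Neutrophil markers, of which 1 of 8 was high enough to test, summed to 0.511 to 0.784 CPM in normal, 1.54 to 2.70 CPM at 1 h and 0.496 to 2.65 CPM at 4 h, and their part in the Pmaip1 level was not tested.

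Bcl2l11 encodes BIM, which is made when growth factor signals are lost. It measured 24.1, 10.5 and 9.31 CPM in normal, 4.55, 16.1 and 9.46 CPM at 1 h, and 6.28, 9.78 and 8.91 CPM at 4 h. Normal replicate 1 was by far the highest of all 9 libraries, and the groups overlapped. Against normal the log2 fold change was -0.55 (SE 0.52, adjusted p = 0.576) at 1 h and -0.82 (SE 0.52, adjusted p = 0.552) at 4 h, and without normal replicate 1 these were 0.02 and -0.25. Summed endothelial markers were 629 to 1488 CPM in normal, 568 to 930 CPM at 1 h and 452 to 805 CPM at 4 h, and normal replicate 1 had the highest endothelial score of all 9. With that score as a covariate the values were -0.10 at 1 h and -0.0006 at 4 h, and the source of the Bcl2l11 transcripts was not tested.

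Bbc3 encodes PUMA, a potent p53 target that binds every pro-survival member. It was 5.32, 6.42 and 2.36 CPM in normal, 5.69, 3.94 and 4.48 CPM at 1 h, and 6.78, 3.81 and 3.96 CPM at 4 h. The 3 groups lay on top of each other, with means of 4.70 ± 2.10, 4.70 ± 0.892 and 4.85 ± 1.67 CPM (SD, n = 3 each). Its 95% interval at 4 h still ran from -0.93 to 1.02 on the log2 scale.

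Between the late and the early stage, 0 of 10 members and 0% of all genes were called by edgeR, and DESeq2 also called 0. At an unadjusted p under 0.05 the count was 0 of 10 members, beside 2.58% of all genes. The members' log2 fold changes ran from -1.04 (Bik and Bid) to 0.56 (Bax), with a median of -0.22 beside -0.04 over all genes. For ischemia of either length against normal, edgeR called 0 of 10 members (0.426% of all genes), 3 members had an unadjusted p under 0.05 (17.1% of all genes), and DESeq2 called these 3, Bcl2l1, Bik and Pmaip1 (6.73% of all genes). A test of all 3 groups together gave 0 of 10 by edgeR (0.0388% of all genes), 3 at an unadjusted p under 0.05 (11.4%), and 1, Bcl2l1, by DESeq2 (4.39%).

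To see how the members stood to each other within a library, log2 ratios of their counts were taken, which do not depend on library size. They are given as values with no test, and their absolute level depends on transcript length. The log2 ratio of Bax to Bcl2 was 2.39 ± 0.998 in normal, 1.61 ± 0.302 at 1 h and 2.88 ± 1.99 at 4 h (SD, n = 3 each), and the groups overlapped. At 4 h it ran from 1.22 to 5.09, the widest range of the groups, with the top value in the library that had only 10 counts of Bcl2. The log2 ratio of Bax to Bcl2l1 was -2.17 ± 0.781 in normal, -3.51 ± 0.520 at 1 h and -3.31 ± 0.460 at 4 h. All 3 of the 1 h libraries lay below the normal ones, but narrowly, with -2.93 as the highest 1 h value and -2.84 as the lowest normal value. Of the 4 h libraries, 1 lay among the normal ones. For the pro-survival pair Mcl1 and Bcl2l1, the ratio was -0.33, -0.10 and 0.96 in normal, -0.70, -0.48 and -0.56 at 1 h, and -1.01, -1.25 and -1.08 at 4 h. These 3 groups did not overlap, with normal highest and 4 h lowest. How often ratios of other gene pairs separate the groups was not counted. In normal, at 1 h and at 4 h, Mcl1 averaged 97.9, 123 and 101 CPM and Bcl2l1 averaged 90.8, 180 and 219 CPM. Both ratios to Bcl2l1 share that gene, so they are not results separate from its own level. The ratio of Mcl1 to Bcl2l1 was picked after its values were seen.

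**Figure D4:**
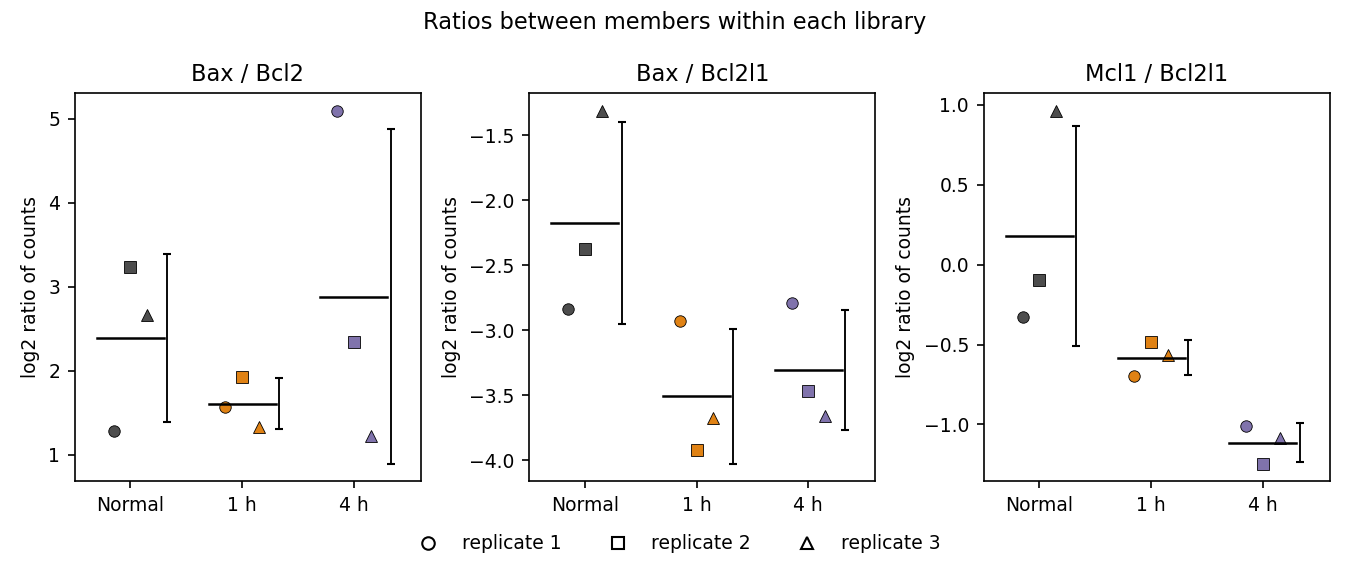
Log2 ratios between members within each library, with 3 libraries per group as points, the group mean as a line and the SD as a bar. The ratio of Bax to Bcl2 overlaps between the groups. The ratio of Mcl1 to Bcl2l1, picked after its values were seen, is highest in normal and lowest at 4 h without overlap. It shares Bcl2l1 with the ratio of Bax to Bcl2l1.

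Of 16 other symbols of the BCL2 family, 14 were in the table and 11 were tested. edgeR called 0 of the 11 at either time. At an unadjusted p under 0.05, 1 was higher and 2 were lower at 1 h (16.7% of all genes in either direction), and the same counts were found at 4 h (12.4%). Their median log2 fold change was 0.19 at 1 h and -0.0034 at 4 h. Bnip3, a hypoxia target that drives mitophagy, averaged 56.8 ± 17.0 CPM in normal, 172 ± 47.9 CPM at 1 h and 112 ± 45.6 CPM at 4 h, which at 1 h was a log2 difference of 1.60 (SE 0.36, adjusted p = 0.186). Its relative Bnip3l, which clears mitochondria from maturing red cells, had the opposite sign, at -0.54 (SE 0.19, adjusted p = 0.261) at 1 h and -0.57 (SE 0.19, adjusted p = 0.276) at 4 h. Bcl2l12 averaged 9.96 ± 1.25 CPM in normal, 4.21 ± 0.893 CPM at 1 h and 5.06 ± 0.921 CPM at 4 h, with log2 fold changes of -1.24 (SE 0.27, adjusted p = 0.180) and -0.98 (SE 0.27, adjusted p = 0.204). Hrk, a BH3-only gene of neurons, ranged from 0.0730 to 11.3 CPM over the libraries, and its log2 fold change of 2.91 at 1 h was 1.08 with the nerve score as a covariate. Bcl2a1, a pro-survival gene of blood cells, stayed under 1.23 CPM in all 9 libraries. Of the genes named here, DESeq2 called Bnip3 at 1 h and Bcl2l12 at both times. It called 4.8% of all genes at 1 h and 3.98% at 4 h.

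Downstream of the pore, 14 of 14 listed genes for the outer membrane channel, the released factors and the caspases were tested, and edgeR called 0 at either time. At an unadjusted p under 0.05, 3 were higher and 1 lower at 1 h, and 1 was higher and 1 lower at 4 h, where 16.7% and 12.4% of all genes passed in either direction. The list's median log2 fold change was 0.06 at 1 h and 0.12 at 4 h. Cycs, which encodes cytochrome c, averaged 29.1 ± 9.96 CPM in normal, 55.7 ± 5.89 CPM at 1 h and 58.0 ± 4.62 CPM at 4 h, with log2 fold changes of 0.94 (SE 0.24, adjusted p = 0.210) and 1.00 (SE 0.24, adjusted p = 0.162). DESeq2 called Cycs at both times (beside 4.8% of all genes at 1 h and 3.98% at 4 h). Diablo (a caspase inhibitor antagonist) and Opa1 (the inner membrane fusion protein) had log2 fold changes of 0.81 and 0.65 at 1 h (edgeR adjusted p = 0.271 and 0.284). Apaf1, the scaffold of the apoptosome, had -0.55 at 1 h (edgeR adjusted p = 0.318).

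All 19 listed regulators of the members were tested, and edgeR called 0 at either time. At an unadjusted p under 0.05, 4 were higher and 2 lower at 1 h (16.7% of all genes), and 2 were higher and 1 lower at 4 h (12.4% of all genes). The list's median log2 fold change was 0.28 at 1 h and 0.12 at 4 h. Foxo3, a transcription factor that activates Bcl2l11 and Bbc3, averaged 26.6 ± 8.04 CPM in normal, 63.1 ± 11.7 CPM at 1 h and 67.7 ± 12.1 CPM at 4 h, with log2 fold changes of 1.25 (SE 0.26, adjusted p = 0.161) and 1.35 (SE 0.26, adjusted p = 0.0919). Beside it, Bcl2l11 had -0.55 and -0.82 and Bbc3 had 0.0002 and 0.04. Casp8, which cuts BID, averaged 6.91 ± 3.15 CPM in normal, 2.94 ± 0.242 CPM at 1 h and 1.96 ± 0.371 CPM at 4 h, with log2 fold changes of -1.23 (SE 0.37, adjusted p = 0.232) and -1.82 (SE 0.38, adjusted p = 0.115). Stat3, an activator of Bcl2l1 and Mcl1, had a log2 value of 0.97 (SE 0.28, adjusted p = 0.227) at 1 h and 0.41 at 4 h. DESeq2 called Foxo3 at both times, Casp8 at 4 h and Stat3 at 1 h. It called 4.8% of all genes at 1 h and 3.98% at 4 h. Jun averaged 692 ± 289 CPM at 4 h against 233 ± 144 CPM in normal, and these groups overlapped. Its log2 fold change at 4 h was 1.57 (SE 0.53, adjusted p = 0.289). Ddit3, the stress factor CHOP, had -0.44 (adjusted p = 0.288) at 1 h.

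The genes whose log2 CPM followed each member most closely over the 9 libraries were sought among all tested genes, by Pearson correlation. Bcl2l1 was closest to Siah1 (r = 0.961), Tifa (0.959) and Hnrnpr (0.956). For Mcl1 they were Aff1 (0.959), Ripk1 (0.931) and Clic4 (0.927), and for Pmaip1 they were Tm9sf3 (0.984), Tekt4 (0.972) and Mir338 (0.956). Bik was closest to S1pr2 (0.974), a receptor for sphingosine 1-phosphate, and Bid to Atp8a1 (0.998), Rnf165 (0.994) and Dusp26 (0.993). Bax was closest to Polr2f (0.986), Chmp2a (0.980) and Rps27l (0.977). Such values are the largest out of 15482 genes over 9 points that share libraries and groups, and they describe likeness only.

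The 3 members with an unadjusted p under 0.05 in a contrast against normal were refitted with each library left out in turn. The log2 fold change of Bcl2l1 at 4 h ran from 1.00 (without normal replicate 3) to 1.46, with an unadjusted p under 0.05 in 9 of 9 fits. At 1 h it ran from 0.70 (without ischemia 1 h replicate 2) to 1.19, with 8 of 9 fits under 0.05. Bik at 4 h ran from -2.45 to -1.99, again with 9 of 9 fits under 0.05. Pmaip1 ran from 1.80 to 2.96 at 1 h and from 1.65 to 2.80 at 4 h, with 6 and 5 of 9 fits under 0.05. The lowest adjusted p in these fits was 0.140, so no fit brought a call. The 3 members were picked by their p in these same libraries. The counts of fits under 0.05 are therefore no independent support and show only the dependence on single libraries.

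**Figure D5:**
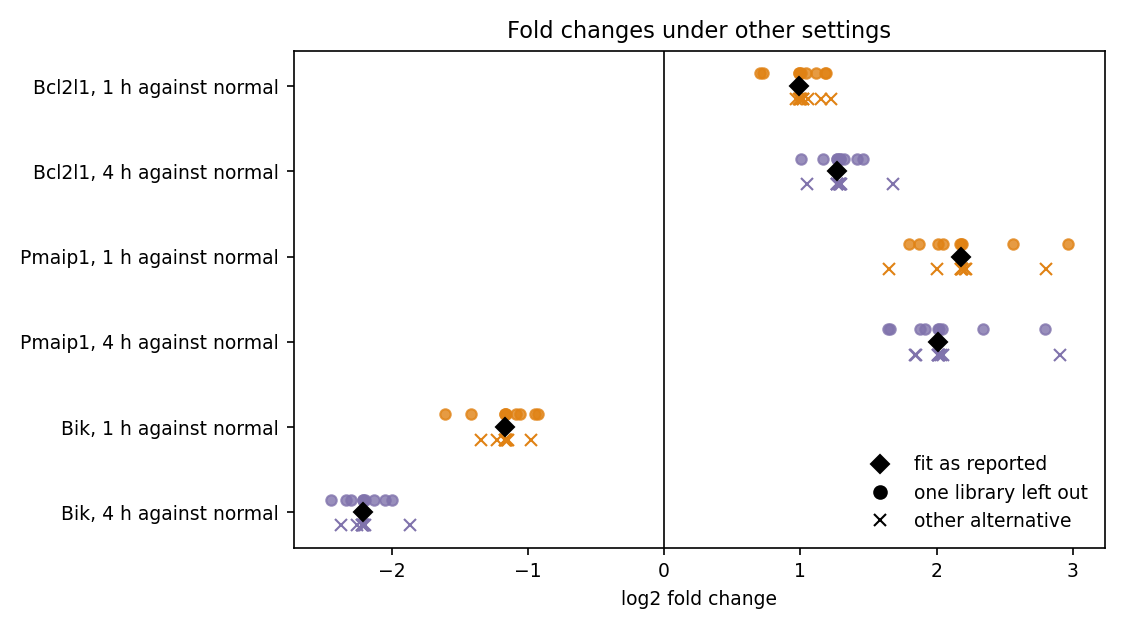
Log2 fold changes of Bcl2l1, Pmaip1 and Bik against normal at 1 h and 4 h, as reported (diamonds), with 1 library left out (dots) and under the other alternative fits (crosses). The values of Bcl2l1 and Pmaip1 are above 0 and those of Bik below 0 in every fit shown, at both times.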

How the data were processed

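Total RNA of superior mesenteric artery was sequenced in 9 libraries. The authors deposited raw counts per gene symbol, and the submitters' processing notes name HISAT2 with no version. The counting program, genome build, annotation and strand setting are not given in the sources used here, so reads of overlapping or antisense genes cannot be told apart. The methods of the study describe microarrays for these samples and a random variance F-test, whereas the table holds whole numbers, so a count test was used in its place. The 10 members, the gene lists and the tests were chosen with earlier results of these data known.

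Counts were filtered with filterByExpr, scaled by TMM and fitted in R 4.3.3 with edgeR 4.0.16 (glmQLFit, glmQLFTest) over all 9 libraries, with group as the only term. Adjustment for multiple tests was by Benjamini-Hochberg over 15482 genes, and a call needed an adjusted p under 0.05 and a difference of over 1.5 times. Contrasts were 1 h, 4 h and the mean of both against normal, 4 h against 1 h, and the 3 groups together. DESeq2 1.42.0 was an alternative. The script was tested on simulated data. Likeness used log2 CPM with a prior count of 2, and ratios a prior count of 0.5. The text names all 10 members, up to 5 genes of each further list (49 listed genes) with the smallest unadjusted p against normal, and up to 3 genes most like a member, passing over uncharacterised symbols. Some genes that this rule selects were tested and counted but are not reported here. The common biological coefficient of variation was 51.6%, and no library was a copy of another (lowest chi-square per degree of freedom 29.9). Intervals of counts cover counting error only.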

Additional observations from a re-analysis of the deposited data

How the results depend on the processing

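No member was called by edgeR under any of its alternatives, with a library left out, or with the replicate numbers as a block. DESeq2 called 2 members at 4 h, 3 for the mean of both times and 1 for the 3 groups together. Counts of calls over all genes moved more. At 1 h the count of 9 was 702 by DESeq2, 17 with the nerve score as a covariate, 4 with only the groups compared, and 0 to 11 with 1 library left out. At 4 h the count of 14 was 606 by DESeq2, 91 with at least 1 CPM in all libraries, 124 with the nerve score, 4 with only the groups compared, and 1 to 14 with 1 library left out. For the mean of both times the count of 66 was 1025 by DESeq2, 188 with at least 1 CPM, 154 with the nerve score, 22 with the endothelial score (an alternative chosen after seeing the data), and 1 to 22 with 1 library left out. For the 3 groups together the count of 6 was 669 by DESeq2, 21 with at least 1 CPM, 11 with no filter, 32 with the nerve score, 2 with the endothelial score, and 0 to 7 with 1 library left out. With the replicate block the counts were 7 at 1 h, 7 at 4 h, 19 for the mean and 0 for the 3 groups, and Bcl2 at 4 h was -0.014 on the log2 scale. The numbers were not taken as pairs, since only 4 of 9 same-number pairs of libraries, among them all 3 pairs of replicate 2, had deviations from the group means that correlated above 0.1 (range -0.651 to 0.660), and not every library correlated best with its own number. From 1 h to 4 h the count was 0 in every fit.

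Against normal, directions turned only for the members Bcl2, Mcl1, Bax, Bak1, Bid, Bcl2l11 and Bbc3, and for Hrk of the further lists. The cause was not tested. Adjusted for the nerve score, log2 fold changes were 0.044 for Bak1 and -0.49 for Bcl2 at 1 h, and -0.13 for Bcl2 and -0.23 for Bid at 4 h. With the endothelial score it was -0.077 for Bbc3 at 1 h, and -0.075 for Bbc3 and -0.020 for Bax at 4 h. Scaling by library size alone moved the median of all genes to -0.15 at 4 h and -0.24 from 1 h to 4 h, and gave -0.011 for Bbc3 at 1 h and -0.20, -0.11 and -0.13 for Bbc3, Bcl2 and Mcl1 at 4 h, of which only Bbc3 lay below that median. With 1 library left out, values at 1 h ran from -0.32 to 0.29 for Bbc3, from -1.07 to 0.019 for Bcl2l11 and from -0.024 to 0.56 for Mcl1. At 4 h they ran from -0.64 to 0.081 for Bak1, from -0.031 to 0.43 for Bax, from -0.29 to 0.37 for Bbc3, from -0.62 to 0.55 for Bcl2, from -1.13 to 1.01 for Bid, from -1.27 to 4.15 for Hrk and from -0.013 to 0.096 for Mcl1. Bik and Pmaip1 rest on 3 to 86 counts per library, so their counting error is large.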
